A study of Mus musculus with 20 samples.

Results

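Carbonic anhydrases were examined in kidney tumors of the Cre-less AAV mouse model and in normal mouse kidneys. The 10 genes Car2, Car3, Car4, Car5b, Car8, Car9, Car12, Car13, Car14 and Car15 were taken by name from a gene count table of 54532 genes. The table lists 16 genes named Car and a number, and the other 6 (Car1, Car5a, Car6, Car7, Car10 and Car11) are given further on. Bulk RNA sequencing covered 10 tumors and 10 normal kidneys of C57BL/6 mice that carried LSL-Cas9/+ and Pax8 Cre, so that Cas9 and GFP were made in cells that express Pax8, which include tubule cells. An adeno-associated virus (AAV) with sgRNAs against Vhl, Pbrm1, Keap1 and Tsc1 had been injected into the kidney. The normal tissue came from kidneys of these same mice, 10 in number per the study's methods, so the groups share genotype. The sources used here do not say whether a normal sample was from an injected kidney. Per the study's methods, young adult mice of both sexes were injected.

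Carbonic anhydrases turn carbon dioxide and water into bicarbonate and a proton, and back. In the kidney they serve bicarbonate recovery in the proximal tubule and acid secretion in the collecting duct. Some members work in the cytosol, some in the mitochondrion and some at the cell surface, where they act on the fluid outside the cell. Car9 is a known target of the hypoxia-inducible factors (HIF), which the Vhl protein marks for destruction, and its human counterpart CA9 is used as a marker of clear cell renal cell carcinoma.

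A tumor library held 18447394 to 24902973 counts and a normal kidney library 14737516 to 26679704. Values are counts scaled to a common library size (CPM), and differences are log2 fold changes of tumor over normal kidney with their standard error (SE). Of the sgRNA targets, Vhl RNA ranged from 21.6 to 28.8 CPM in normal kidneys and from 12.3 to 28.6 CPM in tumors, and each of the 4 had at least 284 counts in every library. Vhl and Tsc1 were lower in tumors (log2 fold changes of -0.49 and -0.61), Keap1 was higher (0.83), and Pbrm1 did not pass the test (-0.28, adjusted p = 0.23 by edgeR). An edit need not lower RNA, so these levels do not measure editing. Several libraries stood apart. The sum of 6 tubule injury markers was 36900, 49400 and 28300 CPM in normal kidneys 5, 7 and 8, against 2050 to 4160 CPM in the other 7 normal kidneys. Most of this sum was Spp1, with means of 12510 CPM in normal kidneys and 16260 CPM in tumors. Each other marker had a mean of at most 800 CPM in either group. Normal kidney 9 had a scaling factor of 0.7492 and no count of the adipocyte gene Adipoq. Its sum of podocyte markers, 117 CPM, was the lowest of the normal kidneys. Its sums of loop of Henle, principal cell and erythroid markers (9200, 1200 and 5920 CPM) were the highest of that group. Tumor 7 had the lowest sum of HIF targets among tumors and the highest of adipocyte markers.

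All 10 carbonic anhydrases passed the filter on low counts. In tumors 3 of them were higher (Car9, Car13 and Car5b), 3 were lower (Car4, Car8 and Car15), and 4 did not pass the test (Car2, Car3, Car12 and Car14). Calls were made at an adjusted p under 0.05 by edgeR's quasi-likelihood test over 15354 genes. Over all genes tested, 23.6% were called higher and 23.8% lower (47.5% either way), with a median log2 fold change of -0.021, so the count of members called is near the background of this comparison. The members differed from each other in size and direction of change, as the plot of fold changes shows. In bulk tissue, fewer cells of a type and less RNA per cell cannot be told apart.

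**Figure D1:**
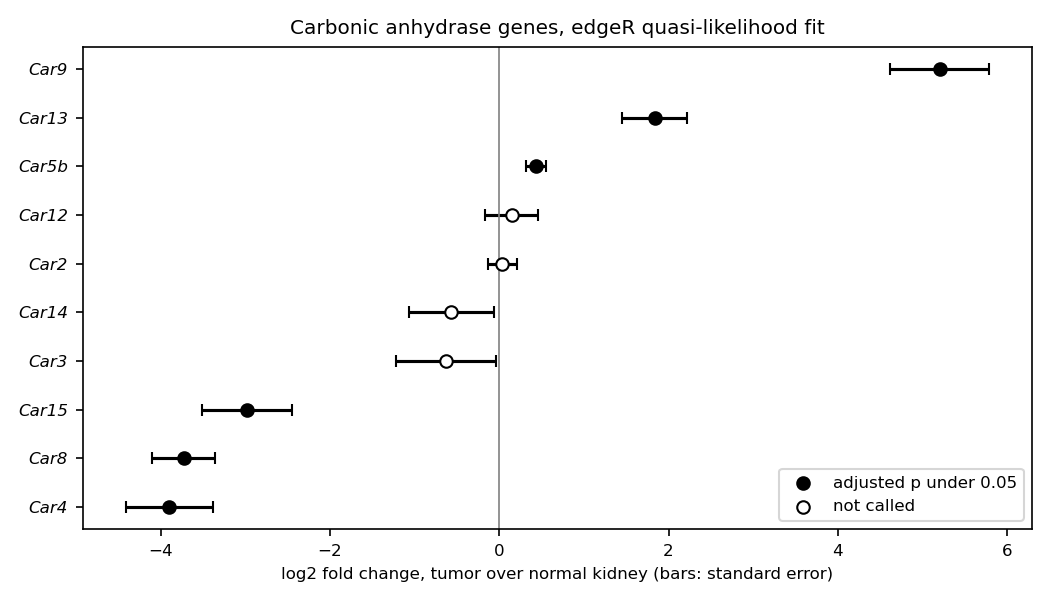
Log2 fold change of tumor over normal kidney for the 10 carbonic anhydrase genes, with bars for the standard error and filled points for genes with an adjusted p under 0.05. The values run from -3.90 for Car4 to 5.20 for Car9, and the 4 open points lie between -0.63 and 0.15.

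**Figure D2:**
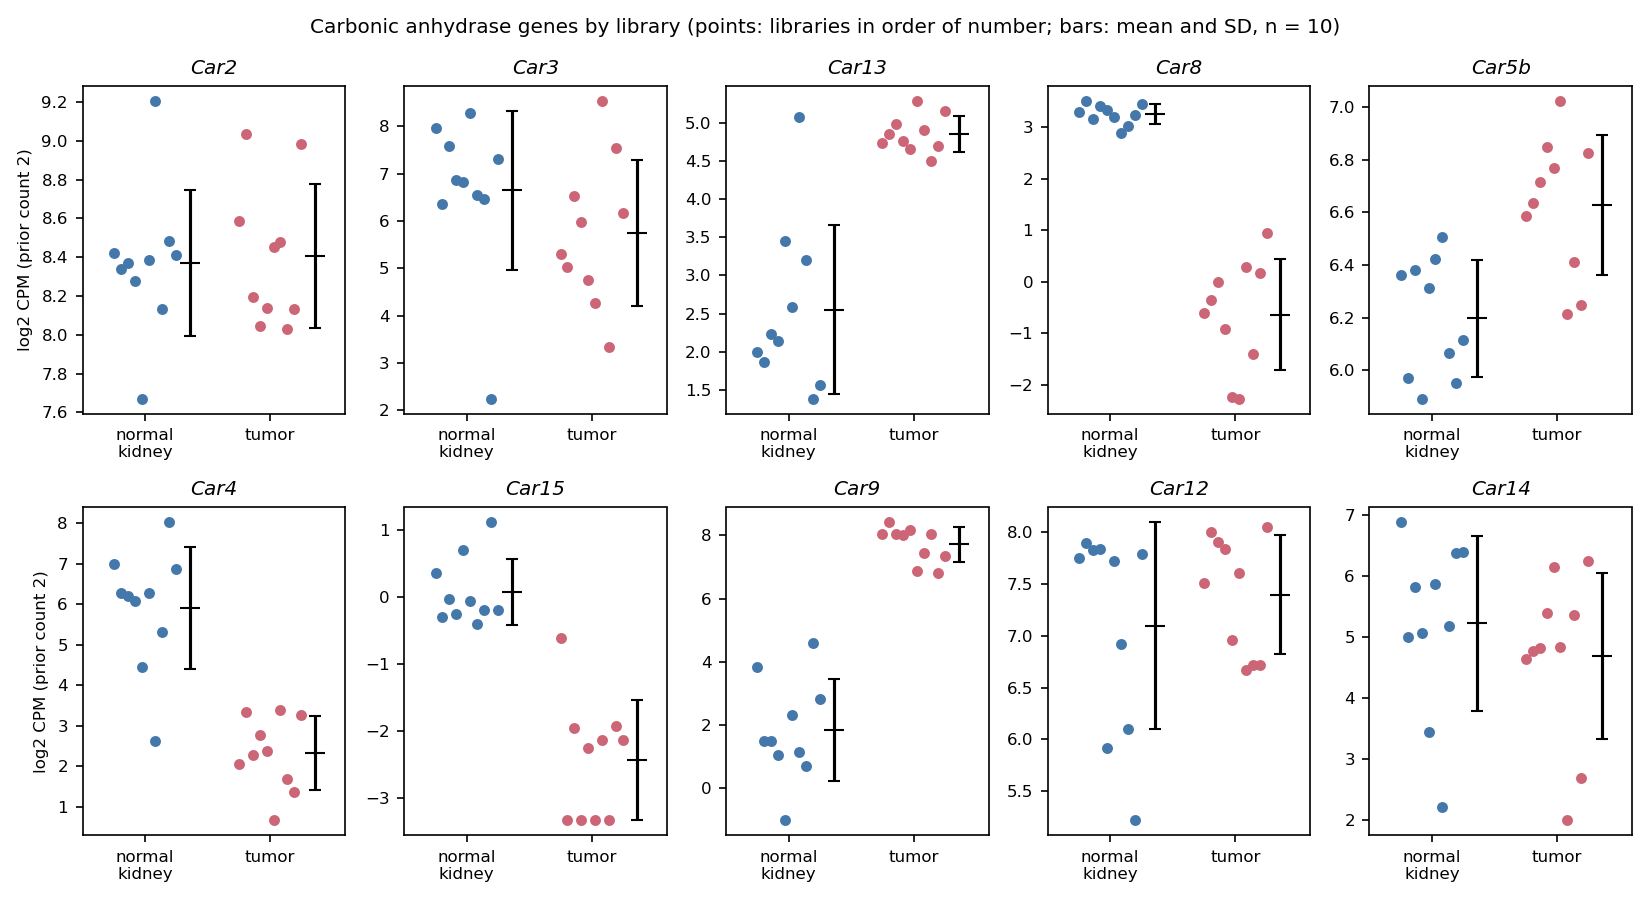
Level of each gene in each library in log2 CPM, with normal kidneys on the left and tumors on the right of each panel in order of their number, and bars for mean and SD (n = 10). Vertical axes differ between panels. Tumors and normal kidneys do not overlap for Car9, Car8 and Car15, and a single normal kidney, number 7, lies among the tumors for Car13. Of all genes tested, 5.87% had every tumor above every normal kidney and 4.74% had every tumor below.

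Car2, the main cytosolic carbonic anhydrase of tubule cells, had the highest median level of the family in both groups. It ranged from 204 to 590 CPM (median 332) in normal kidneys and from 261 to 524 CPM (median 321) in tumors. The groups overlapped, with normal kidney 5 lowest and normal kidney 7 highest of the 20 libraries. It differed between groups by a log2 fold change of 0.036 (SE 0.171, adjusted p = 0.88 by edgeR), whose 95% interval ran from -0.323 to 0.396. The sign of this small difference turned under other scalings, to -0.080 with library totals. Car2 is also a gene of intercalated cells, the acid-secreting and base-secreting cells of the collecting duct. All 8 markers of those cells were lower in tumors, and their summed level fell from 201 to 694 CPM in normal kidneys to 1.85 to 12.8 CPM in tumors. Within groups no relation of Car2 to that sum passed the test (Pearson's r = -0.25 and Spearman's rho = -0.37 in 10 normal kidneys, r = -0.04 and rho = -0.15 in 10 tumors, permutation p of 0.297 to 0.91, adjusted p of 0.733 to 0.91 over 7 relations). In normal kidneys r was 0.58 without normal kidneys 7 and 9, the libraries farthest from the median of the sum.

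Car13, another cytosolic member, was higher in tumors. Normal kidneys had a lowest level of 2.51, a median of 4.44 and a highest of 33.5 CPM, and tumors had 22.5, 27.8 and 38.9 CPM. Of the 10 normal kidneys 9 were below every tumor, and normal kidney 7 lay within the range of the tumors. This was a 3.57-fold rise, or 1.84 on the log2 scale (SE 0.389, adjusted p = 0.000556 by edgeR). Without normal kidney 7 it was 2.46, and without normal kidneys 5, 7 and 8 it was 2.88. Normal kidneys 5 and 8 had the next highest levels of their group, 10.8 and 9.13 CPM, while the other 7 lay between 2.51 and 5.92 CPM. The tumors varied little, with an SD of 0.239 on the log2 scale against 1.10 in normal kidneys.

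Car8, a cytosolic member without enzyme activity that binds the IP3 receptor, was lower in tumors. It had 148 to 227 counts in a normal kidney and 2 to 42 in a tumor. These were 7.30 to 11.3 CPM (median 9.46) in normal kidneys and 0.107 to 1.82 CPM (median 0.622) in tumors. Every tumor was below every normal kidney, as was the case for 4.74% of all genes tested. The fold change of Car8 was -3.73 on the log2 scale (SE 0.371, adjusted p = 4.8e-08 by edgeR), a 13.2-fold difference. Car8 was the steadiest member among normal kidneys, with an SD of 0.194 on the log2 scale. Normal kidneys 5, 7 and 8 had 10.0, 7.30 and 7.96 CPM, of which the last 2 lay below the 8.82 to 11.3 CPM of the other 7 and above every tumor.

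Car3, a cytosolic member of low activity that is abundant in fat, muscle and liver, did not pass the test over all libraries. Normal kidneys ranged from 4.65 to 313 CPM (median 114) and tumors from 10.1 to 371 CPM (median 51.0). The groups overlapped, with normal kidney 9 lowest and tumor 7 highest of the 20 libraries. Normal kidney 9 stood far below the other normal kidneys, whereas tumor 7 was followed by tumor 9 at 186 CPM. For Car3 the log2 fold change was -0.63 (SE 0.591, adjusted p = 0.402 by edgeR), with a 95% interval from -1.87 to 0.62. With those 2 libraries left out, a choice made after seeing the data, it was -1.39 (adjusted p = 0.0129 by edgeR).

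The Car3 level went with a fat cell gene. Among 15353 genes, the gene whose log2 CPM was most like Car3 in the 10 normal kidneys was Adipoq, which encodes the fat cell hormone adiponectin (r = 0.973), with Rptor (0.973) and Aoc3 (0.972) next. Adipoq was chosen there, so the normal kidneys are no test of it. In the 10 tumors, whose values did not enter that ranking, Car3 and Adipoq had r = 0.83 (permutation p = 0.00391) and rho = 0.84 (permutation p = 0.00387). These were adjusted to 0.0313 and 0.031 over 8 relations. The relation in tumors was added after seeing the data, so these p-values are no independent test of it. Adipoq also belongs to the 6 adipocyte markers given below. Without tumors 6 and 7, the farthest in Adipoq, r was 0.72 in 8 tumors (permutation p = 0.0481). Adipoq was at 65.9 CPM in tumor 7 and 31.5 CPM in tumor 9, and Car3 was at 371 and 186 CPM there, the 2 highest Car3 levels among tumors. Adipoq was at 0 counts in normal kidney 9, where Car3 was at 4.65 CPM. The summed level of 6 adipocyte markers gave no relation past the adjusted threshold (r = 0.67, adjusted permutation p = 0.235, rho = 0.35, adjusted p = 0.733, in tumors, and r = 0.44, adjusted p = 0.728, rho = 0.48, adjusted p = 0.733, in normal kidneys), and in tumors it rested on tumors 7 and 9, since r was -0.06 without them. None of the 6 adipocyte markers passed the test between groups, and their sum was 151 to 788 CPM in normal kidneys and 60.4 to 2180 CPM in tumors. Of 2 tested skeletal muscle markers Acta1 was higher in tumors, and Mylpf did not pass the test (log2 fold change 0.195, adjusted p = 0.567 by edgeR). The sum of all 5 in the table was 0.595 to 2.14 CPM in normal kidneys and 5.10 to 25.9 CPM in tumors. In tumors it was mostly Acta1 (mean 10.4 CPM), while Ckm, Myh4 and Tnnt3 had means of at most 0.0796 CPM. The part of fat and muscle tissue in the Car3 level was not tested.

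**Figure D3:**
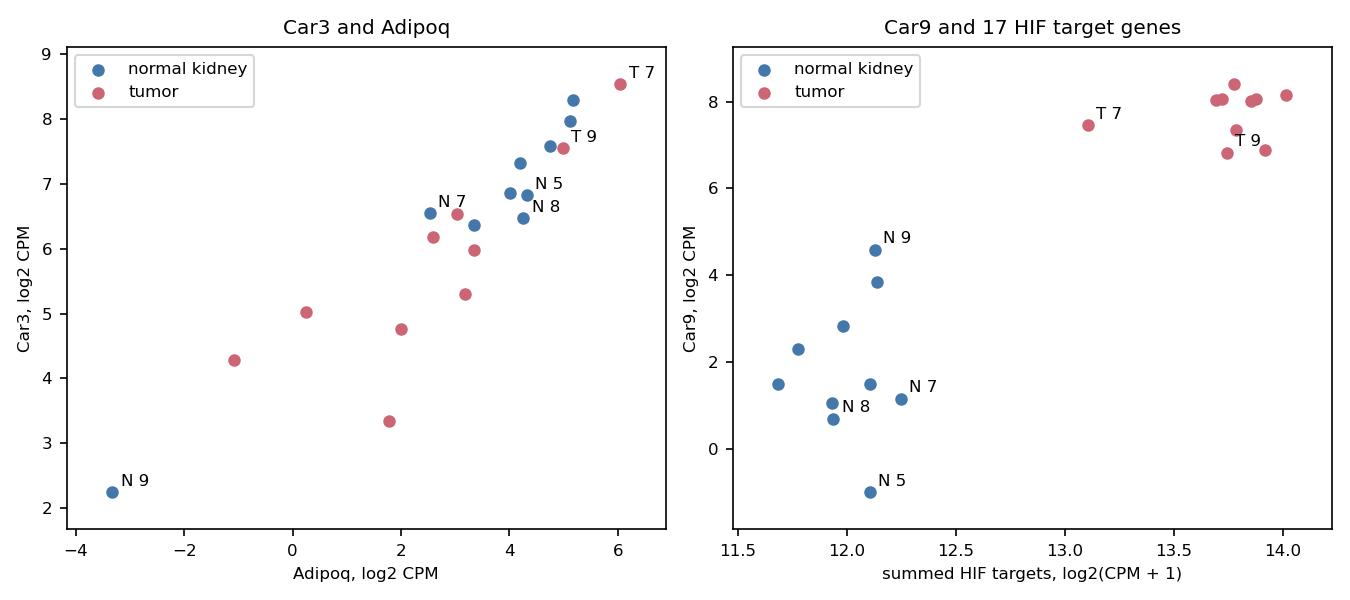
Left, log2 CPM of Car3 against log2 CPM of Adipoq, and right, log2 CPM of Car9 against the log2 of the summed CPM of 17 HIF targets plus 1, with a point for each of the 10 normal kidneys and 10 tumors. Letters N and T with a number mark the libraries named in the text. On the left the points of both groups rise together (r = 0.83 in tumors), and on the right the groups form separate clouds with no trend shown within either (r = 0.09 in normal kidneys and 0.17 in tumors).

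Car5b, which serves the mitochondrion, rose by a small amount in tumors. It ranged from 59.3 to 90.8 CPM (median 74.3) in normal kidneys and from 74.2 to 130 CPM (median 102) in tumors. The ranges overlapped, with 7 tumors above every normal kidney and tumor 7 lowest. The rise was 1.35-fold, with a log2 fold change of 0.44 (SE 0.115, adjusted p = 0.00362 by edgeR). Its relative Car5a, the other mitochondrial member, had 0 counts in all 10 tumors and 68 to 199 counts in 7 normal kidneys, which puts its mean level at least 29.2-fold lower in tumors when each tumor is set to 3 counts, the most that a count of 0 allows. The 3 normal kidneys without it were numbers 5, 7 and 8, with 1, 0 and 3 counts. Car5a did not pass the filter on low counts and was not tested.

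Car9, a transmembrane enzyme with its active site outside the cell, moved most. Its counts were 8 to 380 in normal kidneys and 2187 to 6006 in tumors. The levels in normal kidneys ran from 0.397 CPM in normal kidney 5 through a median of 2.70 to 23.9 CPM in normal kidney 9, and in tumors from 113 CPM in tumor 9 through 260 to 340 CPM in tumor 2. Every tumor was above every normal kidney, as were 5.87% of all genes tested. Car9 had a fold change of 5.20 on the log2 scale (SE 0.582, adjusted p = 2.62e-07 by edgeR), a 36.8-fold rise. Of 17 other HIF targets, 16 were higher in tumors, and their sum rose from 3290 to 4860 CPM in normal kidneys to 8810 to 16600 CPM in tumors. Most of that sum in tumors was Ndrg1, Ldha and Pgk1, with means of 5675, 2702 and 1946 CPM. Within the tumors no relation of Car9 to that sum passed the test (r = 0.17, rho = 0.16, permutation p = 0.689 and 0.658, adjusted p = 0.91 and 0.733), nor in normal kidneys (r = 0.09, rho = 0.2, adjusted permutation p = 0.91 and 0.733). Tumor 7 had the lowest HIF target sum of the tumors but a Car9 level of 175 CPM, above those of tumors 6, 9 and 10. Nor did its relation to the tubule injury sum among tumors pass (r = -0.29, rho = -0.13, adjusted permutation p = 0.907 and 0.733). In normal kidneys, where the injury sums fell into separate clusters, Car9 was 0.397, 2.12 and 1.51 CPM in numbers 5, 7 and 8 and 1.98 to 23.9 CPM in the other 7.

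Car4, an enzyme tethered by a lipid anchor to the surface of proximal tubule and thick limb cells, was lower in tumors. Normal kidneys had 6.06 CPM at lowest, a median of 75.1 and 258 CPM at highest, and tumors had 1.50, 4.95 and 10.5 CPM. Of the normal kidneys 9 were above every tumor, and normal kidney 7 lay within the tumor range. This was a 14.9-fold difference, or -3.90 on the log2 scale (SE 0.515, adjusted p = 2.51e-06 by edgeR). Among normal kidneys, numbers 5, 7 and 8 were lowest, at 21.6, 6.06 and 39.4 CPM, against 67.9 to 258 CPM in the other 7. The summed level of proximal tubule markers was also lowest in these 3 (2220, 1860 and 3100 CPM against 6760 to 11200 CPM). In tumors that sum was 1130 to 9520 CPM, and 2 of its 8 tested genes, Slc5a2 and Aqp1, were lower. The sum of the loop of Henle markers went from 3640 to 9200 CPM in normal kidneys to 20.8 to 160 CPM in tumors, with 3 of 4 genes lower. The part of these cells in the Car4 level was not tested.

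The promoters of Car9 and Car4 are shown because these are membrane members called in opposite directions. RefSeq's table for GRCm38.p6, which gives 250 bases before to 50 after the start of a gene, holds 6 of the 10 members (Car4, Car5b, Car9, Car12, Car14 and Car15). The first sequence is chr4:43506776-43507075 on the plus strand and the second is chr11:84957504-84957803 on the plus strand. Capitals mark the letters ACGTG, the core that HIF binds, read on the opposite strand.
Car9: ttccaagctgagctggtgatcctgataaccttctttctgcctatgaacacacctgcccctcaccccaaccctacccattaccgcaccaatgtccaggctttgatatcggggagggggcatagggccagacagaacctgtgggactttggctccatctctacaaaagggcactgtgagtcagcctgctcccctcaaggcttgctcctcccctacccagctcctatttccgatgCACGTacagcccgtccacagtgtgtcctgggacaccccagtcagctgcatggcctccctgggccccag
Car4: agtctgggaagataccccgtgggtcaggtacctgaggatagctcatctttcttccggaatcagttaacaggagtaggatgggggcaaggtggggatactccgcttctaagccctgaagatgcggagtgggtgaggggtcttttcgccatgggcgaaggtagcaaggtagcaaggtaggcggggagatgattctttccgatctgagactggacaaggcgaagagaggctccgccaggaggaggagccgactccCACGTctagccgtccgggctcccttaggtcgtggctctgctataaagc
By RefSeq's starts the match begins 18 bases before the start of Car9 and at base 3 of the Car4 transcript, on the printed strand. The annotation of the count table starts Car9 60 bases earlier and Car4 32 bases later, so by it the match begins 42 bases after the start of Car9 and 30 bases before that of Car4. Both strands were searched for ACGTG, for GCGTG and for TGACNNNGC, a core of the antioxidant response element. ACGTG had 1 match in each of Car9, Car4 and Car14 (where it begins 7 bases before the start) and none in the windows of Car5b, Car12 and Car15, against 19.6% of 32851 promoters. GCGTG had 5 matches in Car5b and none in the other 5, against 32.4% of promoters, and TGACNNNGC had none in the 6, against 12.4%. The same 5 letters thus stood near the start of a gene that rose, a gene that fell and a gene that did not pass the test.

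Car12 and Car14, both transmembrane enzymes of the tubule surface, did not pass the test. Car12 ranged from 37.2 to 238 CPM (median 213) in normal kidneys and from 102 to 264 CPM (median 188) in tumors. Normal kidneys 9, 5 and 8 held the lowest levels of all 20 libraries, at 37.2, 60.4 and 68.6 CPM. Its log2 fold change was 0.15 (SE 0.313, adjusted p = 0.726 by edgeR), with an interval from -0.512 to 0.804, and its sign turned with library totals (-0.036) and without normal kidneys 5, 7 and 8 (-0.126). Car14 ranged from 4.53 to 117 CPM (median 46.1) in normal kidneys and from 3.89 to 75.2 CPM (median 28.3) in tumors. Its low libraries were normal kidney 7 and tumors 7 and 9, at 4.53, 3.89 and 6.37 CPM. Its log2 fold change was -0.57 (SE 0.501, adjusted p = 0.368 by edgeR), with an interval from -1.62 to 0.484. Car14 overlaps Aph1a on the opposite strand, so its counts are uncertain if strand was not used.

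Car15, a lipid-anchored member known from mouse kidney, had few counts. They were 12 to 33 in a normal kidney and 0 to 10 in a tumor, and 4 tumors had none. Normal kidneys ranged from 0.657 to 2.07 CPM (median 0.822) and tumors from 0 to 0.560 CPM (median 0.119), with no overlap. Every tumor was below every normal kidney for 4.74% of all genes tested. On the log2 scale Car15 differed by -2.98 (SE 0.527, adjusted p = 8.69e-05 by edgeR), and -3.58 without tumor 1, the highest tumor. Car15 lies on the same strand as the gene Gm20518 and overlaps its span. Gm20518 had 275 counts over all libraries against 220 for Car15, so the split of reads between them is uncertain.

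Among the other genes of the family, Car11, a member without enzyme activity, was higher in tumors (1.71 to 9.27 CPM against 1.19 to 4.21 CPM), with a log2 fold change of 0.87 (SE 0.271, adjusted p = 0.0118 by edgeR). Car7 differed by -0.41 on the log2 scale (adjusted p = 0.181 by edgeR) and Ptprg, a receptor phosphatase with a carbonic anhydrase domain, by -0.12 (adjusted p = 0.511 by edgeR). Car10 had no count in any library and Car1, the erythrocyte enzyme, at most 3. Car6 had at most 10 counts in a normal kidney and reached 46 in tumor 7. Ptprz1 had at most 12 counts in any library.

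Levels of different genes were compared per kilobase of gene length. Car2 led in all 10 normal kidneys, with a median of 137 CPM per kilobase, and was followed by Car3 (39.9), Car4 (38.2), Car12 (28.0), Car14 (18.1), Car5b (11.7), Car8 (2.46), Car13 (1.93), Car9 (1.17) and Car15 (0.431). The ranges of neighbours in this order overlapped except between Car5b and Car8. In tumors Car2 (133) was followed by Car9 (113), Car12 (24.8), Car3 (17.8), Car5b (16.1), Car13 (12.1), Car14 (11.1), Car4 (2.52), Car8 (0.161) and Car15 (0.0626). Here the ranges did not overlap between Car9 and Car12 or between Car4 and Car8, and Car9 was above Car2 in 3 tumors, numbers 4, 5 and 8. Car9 thus went from the ninth place of the 10 to the second, and Car4 from the third to the eighth.

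The summed level of the 10 genes ran from 167 to 392 CPM per kilobase (median 320) in normal kidneys and from 271 to 453 (median 334) in tumors. The 5 membrane members Car4, Car9, Car12, Car14 and Car15 made up 6.71% to 52.6% of that sum in normal kidneys (median 29.7%) and 24.2% to 52.7% in tumors (median 43.4%). Within the membrane members, per length, Car4 had a median share of 44.8% in normal kidneys (14.0% to 72.9%) and 1.71% in tumors (0.864% to 5.53%), while Car9 had 1.88% (0.713% to 5.75%) and 73.1% (50.6% to 78.9%). Car12 went from 31.4% to 17.8% and Car14 from 21.1% to 8.55% of the membrane sum, by medians. These shares are descriptions, without a test, and they depend on the gene length used: without division by length Car12 led the membrane members of normal kidneys (median 61.5%, against 22.5% for Car4), and in tumors Car9 had 51.8% and Car12 41.5%.

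**Figure D4:**
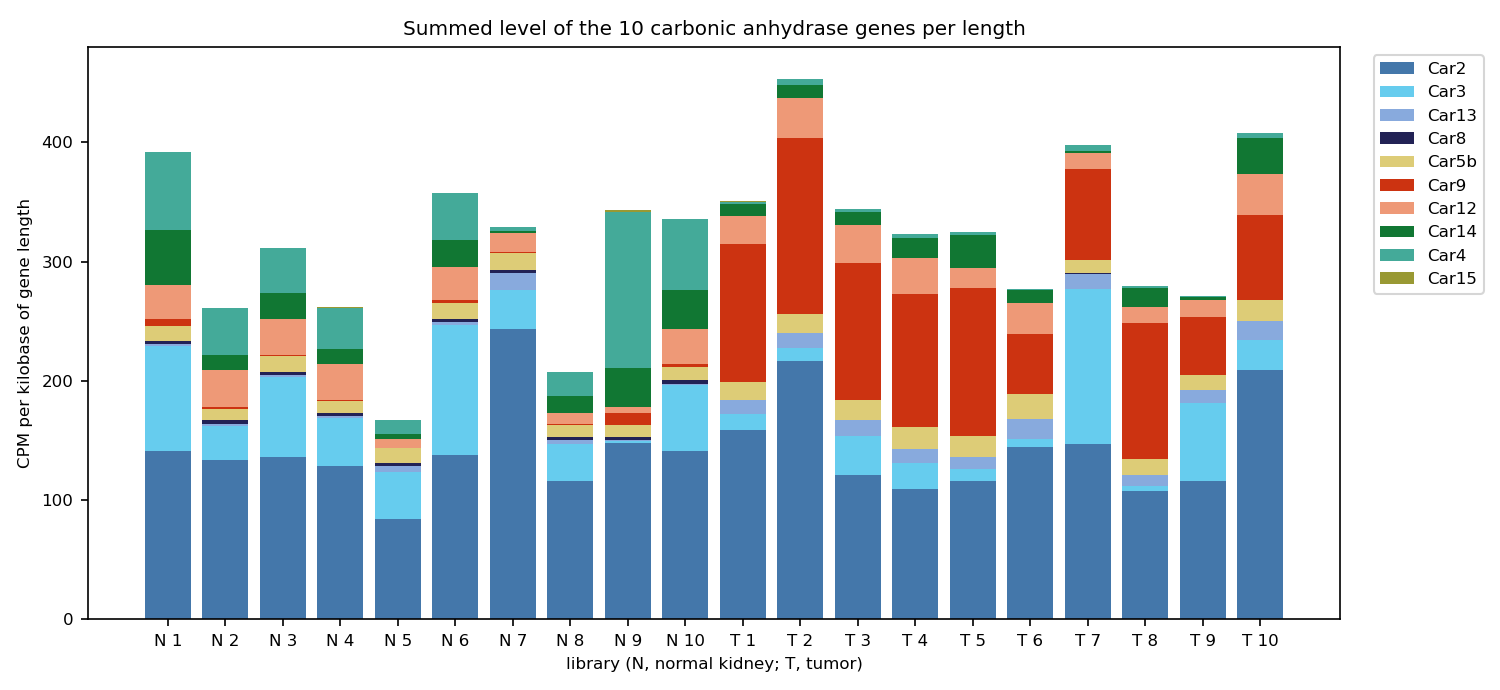
Stacked level of the 10 carbonic anhydrase genes in CPM per kilobase of gene length, with a bar for each of the 10 normal kidneys (N) and 10 tumors (T). Car2 makes up the lowest block in every bar. Car9 is a thin band of at most 10.4 in normal kidneys and a block of at least 49.2 in tumors, while Car4 reaches 131 in normal kidney 9 and at most 5.32 in a tumor.

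Car13, Car1, Car3 and Car2 lie side by side on chromosome 3 (mm10, 14641727 to 14900770), within 259044 bases. Car13, Car3 and Car2 are on the plus strand and Car1 is on the minus strand, and the gap between Car3 and Car2 is 13749 bases. Of these neighbours Car13 was called higher in tumors, Car2 and Car3 were not called, and Car1 had at most 3 counts in a library. Differences between the neighbours were not tested. Car9 and Car8 are both on chromosome 4, at 43506966 to 43513729 and at 8143362 to 8239041, and the former was called higher and the latter lower in tumors. The other members are spread, with Car14 on chromosome 3 (95897768 to 95904691), Car12 on chromosome 9 (66713686 to 66766845), Car4 on chromosome 11 (84957786 to 84966044), Car15 on chromosome 16 (17835276 to 17838364) and Car5b on chromosome X (163976822 to 164027997).

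The transporters and pumps that carry the products of carbonic anhydrases mostly fell. Of 42 such genes 36 were tested. In tumors 7 were higher, 22 were lower and 7 did not pass the test, with a median log2 fold change of -1.22 against -0.021 for all genes. The summed level of all 42 did not fall with this count. It ran from 3810 to 8220 CPM (median 6650) in normal kidneys and from 4590 to 12500 CPM (median 8110) in tumors. Over all genes tested, 23.6% were called higher and 23.8% lower. Those that rose were the lactate and proton carriers Slc16a3 (6.71) and Slc16a1 (2.08), their partner Bsg (1.83), the bicarbonate carriers Slc4a4 (1.64) and Slc4a7 (1.34), the glutamine carrier Slc38a3 (1.01) and the anion exchanger Slc26a6 (0.69). Slc16a3 is also among the 17 HIF targets. Slc16a7, of the same gene family, was lower in tumors (-6.77, SE 0.596, adjusted p = 7.84e-09 by edgeR). It was at 32.3 to 340 CPM in normal kidneys and 0.590 to 6.36 CPM in tumors.

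Slc16a3, which exports lactate with a proton, was at 1.74 to 7.88 CPM in normal kidneys and 364 to 509 CPM in tumors (SE 0.284, adjusted p = 4.54e-13 by edgeR). Bsg, the chaperone of Slc16a3 and Slc16a1, was at 365 to 1230 CPM in normal kidneys and 1428 to 2429 CPM in tumors (SE 0.194, adjusted p = 1.26e-07 by edgeR). The groups did not overlap for either gene. Slc4a4, which moves bicarbonate out of proximal tubule cells into the blood side, went from 892 ± 297 to 2771 ± 986 CPM (mean ± SD, n = 10 each, adjusted p = 5.34e-05 by edgeR). Of the tumors 9 were above every normal kidney, and tumor 7 was lowest at 828 CPM.

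The largest falls were those of genes of the collecting duct. Rhcg, an ammonia channel, went from 5.84 to 146 CPM in normal kidneys to at most 0.728 CPM in tumors. Slc26a4, the chloride and bicarbonate exchanger pendrin, went from 6.10 to 166 CPM to at most 0.640 CPM, and Atp6v1b1, a proton pump subunit, from 29.1 to 175 CPM to at most 1.34 CPM. The proton pump gene Atp4a and the anion exchanger gene Slc26a7 had at most 3 counts in any tumor. Slc4a1, which exports bicarbonate from acid-secreting cells, differed by -4.41 on the log2 scale (SE 0.58, adjusted p = 2.37e-06 by edgeR). Slc9a3, the sodium and proton exchanger of the proximal tubule, differed by -1.25 (SE 0.439, adjusted p = 0.0235 by edgeR), with 55.7 to 197 CPM in normal kidneys and 6.83 to 158 CPM in tumors. Beside these, all 8 intercalated cell markers and all 5 tested principal cell markers were lower, and 7 of the listed transporters and pumps (Atp6v1g3, Atp6v1b1, Atp6v0d2, Slc4a1, Slc4a9, Slc26a4 and Slc26a7) are themselves intercalated cell markers. Other nephron markers were lower too, with 3 of 4 of the loop of Henle, 3 of 3 tested of the distal convoluted tubule and 3 of 4 of podocytes. Higher were 3 of 5 macrophage markers and 1 of 6 endothelial markers, and none of 6 erythroid markers passed the test. Of the 6 tubule injury markers Vcam1 was higher and Lcn2 lower.

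**Figure D5:**
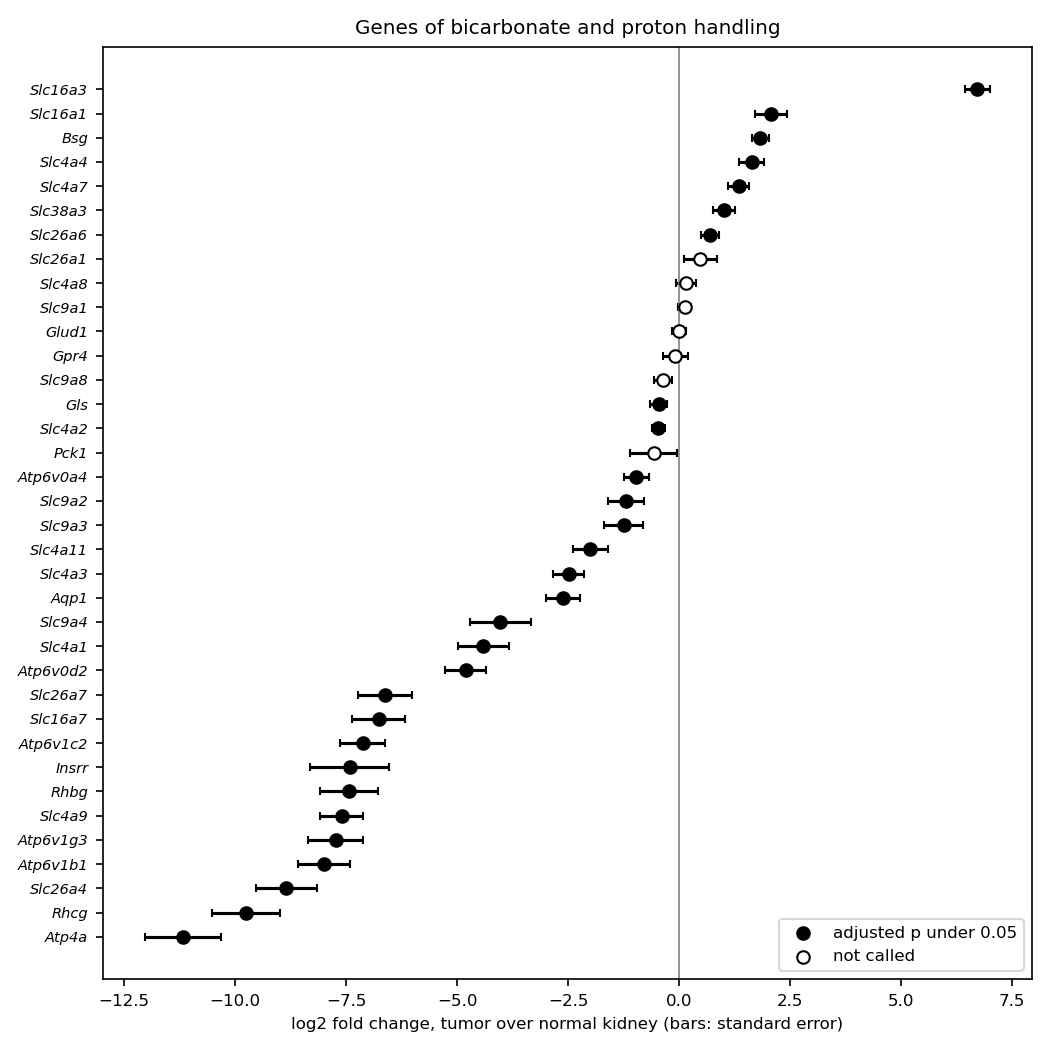
Log2 fold change of tumor over normal kidney for the 36 tested genes of bicarbonate and proton handling, with bars for the standard error and filled points for an adjusted p under 0.05. The 7 genes called higher range from Slc26a6 at 0.69 to Slc16a3 at 6.71, and the 22 called lower end at Atp4a, which had at most 3 counts in any tumor, so that its position is not a measured fold.

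The genes most like each member within a group were read as a description over 10 libraries and 15353 genes, with no p. In normal kidneys Car12 was closest to Hspa12a (r = 0.993), Ank3 (0.985) and Pigb (0.977), Car4 to Gm2011 (0.989), Gcgr (0.987) and Folr1 (0.984), Car13 to Twf1 (0.984), Vgf (0.980) and Bzw1 (0.974), and Car14 to Pdk2 (0.980), Dpep1 (0.975) and Aldh7a1 (0.965). Car9 was closest to Lap3 (0.974), Shmt2 (0.971) and Proc (0.969) there, and Car2 to Nrm (0.973), Rabl6 (0.962) and Pafah2 (0.933). In tumors Car9 was closest to Phc1 (0.970), Deaf1 (0.950) and Rchy1 (0.941), Car3 to Ccm2l (0.954), Ly6c1 (0.952) and Lgals12 (0.944), Car12 to Emx1 (0.974), Mrps25 (0.972) and Akr1c21 (0.971), and Car14 to Btd (0.982), Ndufb11 (0.976) and Acss1 (0.972). No gene was among the 3 nearest to the same member in both groups. With 10 libraries of which several stood apart, such values are high for many genes.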

How the data were processed

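RNA of 10 tumors and 10 normal kidneys was sequenced as poly A libraries by a sequencing company. The authors deposited raw counts per gene, without normalization, on mm10. The aligner, the counter and the use of strand are not given in the sources used here, so counts of overlapping genes are uncertain. The table has 0 rows that name no gene.

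Groups were taken from the labels. Tumors were compared with normal kidneys by edgeR 4.0.16 in R 4.3.3 (TMM factors, filter with a count minimum of 10, quasi-likelihood test without covariates, Benjamini-Hochberg adjustment over 15354 genes). SE is the size of the log2 fold change divided by the square root of F, and 95% intervals use 18 degrees of freedom. Log2 CPM used a prior count of 2, and list sums a pseudocount of 1 CPM. Relations used 100000 permutations, two-sided. A count of 0 was read as up to 3 counts. Intervals and bounds cover counting error and the spread between libraries only. Within groups the 90 pairs of libraries differed by more than sampling noise (lowest chi-square per degree of freedom 12.8), so none was a repeat sequencing of the same library. This check cannot tell whether libraries of a group came from the same mouse.

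Members, the lists of marker genes and of transporters, and the named genes (all family genes, set transporters with the 3 largest rises and falls, and the 3 nearest genes of each member) were chosen with earlier results of these data known. Adipoq's relation to Car3 in tumors was added after seeing the data. On simulated counts of 15354 genes, of which 200 were changed, the test recovered 47% of 2-fold and 90% of 4-fold changes, with 2.84% of calls false. The real comparison called 7292 genes, so these rates need not hold for it. DESeq2 1.42.0, limma 3.58.1, other scalings, no filter, the replicate block and left-out libraries were alternatives.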

Additional observations from a re-analysis of the deposited data

Results flagged for a closer look

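In 20 sets of 10 values (10 genes in each group), 3 held a library far from its others by Dixon's test at the 95% level, which chance gives in about 1 of 20 sets. Car2 was highest in normal kidney 7, at 9.21 log2 CPM. Car3 was lowest in normal kidney 9, at 2.25 log2 CPM. Car15 was highest in tumor 1, at -0.6 log2 CPM, which rests on 10 counts.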

How the results depend on the processing

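The calls of Car9, Car13, Car5b, Car4, Car8 and Car15 kept their direction and their side of the threshold in all 30 alternatives, with log2 fold changes of 4.79 to 6.05, 1.70 to 2.88, 0.27 to 0.48, -4.29 to -3.51, -4.07 to -3.60 and -3.58 to -2.47. Car5b came nearest the threshold, with an adjusted p of 0.0425 by edgeR with library totals and 0.0429 by limma-voom with quantile normalization. Car9 moved by more than 1.5 times in fold to 6.01 and 6.05 with limma-voom and 5.89 with the replicate block. Car13 moved so without normal kidneys 5, 7 and 8 (2.88) and without normal kidney 7 (2.46), and Car15 did without tumor 1 (-3.58). Car3 was called only without normal kidney 9 and tumor 7 (-1.39). Without any single library it stayed above the threshold, from -1.23 without tumor 7 to -0.42.

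The small differences of Car2 and Car12 turned sign. Car2 was -0.078 with upper quartile factors, -0.080 with library totals, -0.167 with quantile normalization and between -0.042 and 0.16 without single libraries. Car12 was -0.036 with library totals and -0.126 without normal kidneys 5, 7 and 8. Upper quartile factors and library totals moved the median of all genes from -0.021 to -0.137 and -0.141, and the share of calls that were higher from 49.8% to 39.2% and 38.5%. With library totals r was -0.41 for Car9 and HIF targets in normal kidneys, -0.13 in tumors, and 0.10 and 0.14 for Car2 and intercalated cell markers in normal kidneys and tumors. Without the 2 farthest libraries r was -0.22 for Car9 and HIF targets in tumors, -0.06 for Car3 and adipocyte markers in tumors and 0.58 for Car2 in normal kidneys. The median Car9 share of the membrane members in tumors was 51.8% without division by length. The cause of these shifts was not tested.

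Per the study's methods, both groups came from a cohort of 10 mice, while the main test treated the libraries as independent. Tumors and normal kidneys share the numbers 1 to 10, but the sources used here do not say that a number marks a mouse. Deviations of same-numbered libraries correlated by -0.14 to 0.38, over 0.1 in 9 of 10 pairs, and 8 of 10 tumors correlated best with their own number, so the pairing by number is a hint from the data. A fit with the replicate block changed no call of a member and gave 3979 genes higher and 3886 lower, against 3631 and 3661.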

Other observations

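Normal kidneys 5, 7 and 8 carried high tubule injury markers and differed from the other 7 normal kidneys in several members, which is given here as values without a test. Car5a was at 0.0496, 0 and 0.146 CPM in them and at 4.07 to 12.5 CPM in the other 7. Car4 and Car13 also lay outside the range of the other 7, on the side of the tumors. Car2 lay outside that range in both directions, at 204, 590 and 281 CPM against 311 to 358 CPM in the other 7. Car9 was not on that side, at 0.397, 2.12 and 1.51 CPM against a median of 4.83 CPM in the other 7 and at least 113 CPM in tumors. Car8 was at 10.0, 7.30 and 7.96 CPM there, 8.82 to 11.3 CPM in the other 7 and at most 1.82 CPM in tumors. The sum of HIF targets was 4410, 4860 and 3920 CPM in these 3 and 3290 to 4510 CPM in the other 7.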
